A study of Mus musculus with 6 samples.

Results

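Suprabasin (Sbsn), dermokine (Dmkn) and the keratinocyte differentiation-associated protein gene (Krtdap) lie side by side on mouse chromosome 7. The accessibility of their chromatin was followed before and after injury in cells of the olfactory epithelium sorted by Krt5 history. These include horizontal basal cells and other cells, and counts are summed over all of them unless stated. The members are 3 of the 21938 protein-coding genes of the annotation (GENCODE M21, assembly GRCm38) and were chosen by name and position, with earlier results of these data known. Sbsn spans 30751471 to 30756134, Dmkn 30763756 to 30781063 and Krtdap 30787896 to 30791097 of chromosome 7, all on the plus strand, with gaps of 7621 and 6832 bp between them. Each gene has 5 distinct annotated transcript starts. Cut sites, the ends of the sequenced fragments left by the transposase, were counted within 1000 bp of these starts and in 281 tiles of 500 bp that cover the genes and 50 kb on each side.

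All 3 genes encode secreted proteins that are textbook products of the upper layers of stratified epithelia such as the epidermis, and in the mouse and other mammals they form 1 conserved gene cluster. Horizontal basal cells are quiescent stem cells that line the basal lamina of the olfactory epithelium, a tissue that does not cornify. When the epithelium above them is destroyed they leave quiescence, multiply and rebuild it. Open chromatin at a start shows that DNA there can be cut, and is not a measure of RNA or protein.

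The 6 libraries are droplet-based single-nucleus ATAC-seq, 3 from uninjured mice (labelled control) and 3 from mice taken 24 h after an intraperitoneal dose of methimazole, a drug toxic to the olfactory epithelium. Mice of both groups carried Krt5-CreERT2 (Krt5CreER in the sample labels) with a homozygous Rosa26-LSL-YFP reporter, and nuclei came from YFP-positive, propidium iodide-negative cells sorted from dorsal olfactory epithelium. The sort selects cells by their Krt5 history, so descendants and other Krt5-derived cells can be included. Per the labels the mice of both groups were aged 8 weeks for replicate 1, 6 weeks for replicate 2 and between 6 and 7 weeks for replicate 3. How many animals a library pools is not given in the sources used here, so p-values measure the spread between these libraries.

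The libraries held 8100227 to 23937953 fragments, and 420 to 1338 barcodes per library had the 2000 or more fragments asked for here, with 14825320 to 44875242 cut sites in them. The uninjured and injured replicate 3 libraries shared 34 of these barcodes and 82002 identical fragments within them, 9 of which fell in the window studied, while other pairs of libraries shared 0 to 4 barcodes with 0 to 17298 identical fragments, 3 of them in the window for uninjured 1 and injured 2 and 1 for injured 1 and injured 2. In injured replicate 2, 1 barcode, also kept in uninjured replicates 1 and 2 and injured replicate 1, held 14.7% of the kept fragments. CPM are cut sites scaled to the library's total times its normalization factor (TMM), unless stated otherwise. For promoters this factor was 1.12, 1.08 and 1.11 in uninjured and 0.88, 0.867 and 0.974 in injured replicates 1 to 3. It thus lowers uninjured and raises injured levels relative to scaling by the total alone. Horizontal basal cell markers (8 genes including Krt5, Krt14 and Trp63) summed to 118 to 168 CPM in uninjured and 101 to 145 in injured libraries. Of the 8, Icam1 was called lower after injury (log2 change −0.68, edgeR adjusted p = 0.0263), and the other 7 were not called, of which Krt15 lay lower and Trp63 and Itga6 higher without overlap. Of the lists for other cell types, the sustentacular one lay at 16.0 to 30.4 CPM before and 10.1 to 11.3 after injury. Of its 6 genes Ermn was called lower (log2 change −1.36, edgeR adjusted p = 0.0037) and Cyp2g1 lay lower without overlap (−1.71, edgeR adjusted p = 0.0609), and 1 of the 6 changes was above 0. Without Ermn the sums overlapped, at 4.98 to 15 and 5.70 to 6.10 CPM. Mature neuron markers stood at 44.2 to 53.9 and 34.4 to 64.1 CPM. Immune markers stood at 12 to 24.0 and 9.84 to 14.9 CPM, mostly from Cd74, and the other 5 at 1.08 to 2.15 before and 2.20 to 4.58 after injury. None of the 5 immune genes that could be tested was called. Left without their most open gene in the same way, the microvillar list lay higher after injury (14.0 to 15.9 and 16.3 to 18.9 CPM) and the Bowman's gland list lower (19.6 to 20.3 and 15.4 to 19.4). Endothelial and stromal markers summed to 17.8 to 23.4 and 21.6 to 23.6 CPM, and 3 of the 6, Pecam1, Kdr and Pdgfra, lay higher after injury without overlap and were not called. The other 3 overlapped, with log2 differences of −0.45 for Dcn and −0.07 for Col1a1 and Cdh5 too sparse to test. Ltf of the respiratory list also lay higher without overlap (log2 difference 1.51, edgeR adjusted p = 0.0602). The rest of that list overlapped, at −0.64 (Reg3g), −0.02 (Foxj1), 0.27 (Muc5b) and 1.09 (Scgb1a1). Of all promoters, 13% lay higher and 14.3% lower without overlap. The part of other cells in the results was not tested.

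The sequences that follow are those the results turn on. They were read from GRCm38, plus strand, 5′ to 3′, and capitals mark matches to the AP-1 motif TGANTCA, searched on both strands. AP-1 dimers of Fos and Jun family proteins bind this motif. The first 4 are the 250 bases upstream of the 5′-most start of each gene and of the internal start of Dmkn, at chr7:30751221-30751470, chr7:30763506-30763755, chr7:30787646-30787895 and chr7:30776151-30776400.
Sbsn upstream: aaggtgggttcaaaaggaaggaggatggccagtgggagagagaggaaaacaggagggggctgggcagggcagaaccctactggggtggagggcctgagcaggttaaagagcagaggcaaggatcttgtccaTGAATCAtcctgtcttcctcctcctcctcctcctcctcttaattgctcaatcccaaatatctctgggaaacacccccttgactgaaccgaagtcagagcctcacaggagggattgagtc
Dmkn upstream: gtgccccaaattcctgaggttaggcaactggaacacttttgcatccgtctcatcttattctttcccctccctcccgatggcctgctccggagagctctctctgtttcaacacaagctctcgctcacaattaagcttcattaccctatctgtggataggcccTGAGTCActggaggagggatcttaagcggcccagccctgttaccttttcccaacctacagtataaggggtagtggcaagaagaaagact
Krtdap upstream: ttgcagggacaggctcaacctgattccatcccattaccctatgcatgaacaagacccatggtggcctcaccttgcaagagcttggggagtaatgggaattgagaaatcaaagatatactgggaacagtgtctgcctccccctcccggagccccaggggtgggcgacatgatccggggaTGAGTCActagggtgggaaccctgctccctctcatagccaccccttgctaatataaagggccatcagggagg
Dmkn internal upstream: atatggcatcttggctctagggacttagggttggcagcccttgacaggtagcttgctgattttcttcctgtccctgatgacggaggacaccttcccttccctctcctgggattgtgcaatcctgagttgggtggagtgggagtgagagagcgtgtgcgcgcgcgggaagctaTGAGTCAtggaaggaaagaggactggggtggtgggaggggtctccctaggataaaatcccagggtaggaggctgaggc

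Each of these 4 stretches holds 1 match, against 6.05% of the 21938 promoters of the same length, all taken at 5′-most starts. The CEBP motif TTGCNNAA has 1 match in the Sbsn, Dmkn and Dmkn internal stretches each and 0 in that of Krtdap, against 9.23% of promoters. The AP-1 matches are described next. The matches are TGAATCA from 30751352 (Sbsn) and TGAGTCA from 30763667 (Dmkn), 30787824 (Krtdap) and 30776323 (Dmkn internal start). A further Sbsn match at 30751465 to 30751471 ends on the first base of the 5′-most start. A match is a description of the letters, and binding was not measured.

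The next 5 are the 300 bases with the most cut sites in each of the 5 regions away from the starts that changed. Their regions are centred 3.47 and 1.72 kb upstream of Sbsn (chr7:30747843-30748142 and chr7:30749701-30750000), or lie between Sbsn and Dmkn (chr7:30759087-30759386), inside Dmkn (chr7:30769237-30769536) and downstream of Krtdap (chr7:30795001-30795300).
Upstream region: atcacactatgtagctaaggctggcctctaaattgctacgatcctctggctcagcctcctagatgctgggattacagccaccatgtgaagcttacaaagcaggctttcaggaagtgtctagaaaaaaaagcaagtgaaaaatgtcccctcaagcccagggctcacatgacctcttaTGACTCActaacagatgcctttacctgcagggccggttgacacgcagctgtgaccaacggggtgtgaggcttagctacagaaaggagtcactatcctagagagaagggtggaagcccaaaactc
Near upstream region: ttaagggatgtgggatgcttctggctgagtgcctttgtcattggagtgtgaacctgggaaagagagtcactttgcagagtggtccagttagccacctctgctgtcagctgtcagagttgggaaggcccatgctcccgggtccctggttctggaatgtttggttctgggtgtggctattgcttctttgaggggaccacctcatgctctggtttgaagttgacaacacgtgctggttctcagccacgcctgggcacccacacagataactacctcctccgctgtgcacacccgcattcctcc
Sbsn-Dmkn intergenic region: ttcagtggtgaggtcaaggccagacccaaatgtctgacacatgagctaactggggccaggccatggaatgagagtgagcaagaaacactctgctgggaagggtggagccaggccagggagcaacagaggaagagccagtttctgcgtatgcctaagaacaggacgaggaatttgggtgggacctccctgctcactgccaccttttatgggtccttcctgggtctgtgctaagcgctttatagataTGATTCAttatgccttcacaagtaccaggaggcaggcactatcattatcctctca
Dmkn inner region: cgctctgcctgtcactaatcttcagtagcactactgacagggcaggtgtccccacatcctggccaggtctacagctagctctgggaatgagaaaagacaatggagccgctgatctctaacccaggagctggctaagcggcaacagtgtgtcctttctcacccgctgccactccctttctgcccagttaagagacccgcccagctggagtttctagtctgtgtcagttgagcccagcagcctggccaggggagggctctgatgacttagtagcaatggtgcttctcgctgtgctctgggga
Krtdap downstream region: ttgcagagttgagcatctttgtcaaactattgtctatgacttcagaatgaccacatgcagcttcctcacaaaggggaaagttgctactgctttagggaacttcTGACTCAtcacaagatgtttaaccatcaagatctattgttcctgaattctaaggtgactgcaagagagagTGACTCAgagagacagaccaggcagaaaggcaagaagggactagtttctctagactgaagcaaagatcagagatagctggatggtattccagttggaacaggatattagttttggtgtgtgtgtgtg

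Of these 5 stretches 3 hold an AP-1 match: the upstream and intergenic ones 1 each and the downstream one 2. The near upstream and Dmkn inner stretches hold 0. Genome-wide, 12.6% of open tiles hold at least 1 in their central 300 bases. In the downstream region the summit of cut sites lay 2 bp from the centre of the nearest match, in the upstream region 63 bp and in the intergenic region 194 bp.

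Accessibility at the 5′-most starts of Sbsn and Krtdap rose after injury, and that of Dmkn was higher on average without passing the test. At Sbsn, the gene of suprabasin, a secreted protein of suprabasal keratinocytes, the window of 1000 bp on each side of the start held 6, 33 and 26 cut sites in the uninjured libraries (replicates 1 to 3, the order used throughout) and 156, 93 and 81 in the injured ones. After scaling these were 0.36, 0.935 and 0.739 CPM against 3.95, 4.53 and 2.33 CPM. Every injured library lay above every uninjured one, with injured replicate 3 the lowest of its group. Summed over a library, more cells with an open start and more cut sites per cell cannot be told apart. The mean rose from 0.678 ± 0.292 to 3.6 ± 1.14 CPM (SD, n = 3), 5.31 times, and the log2 change was 2.34 ± 0.40 (SE), with an edgeR Benjamini-Hochberg adjusted p of 0.00756. The call was lost without injured replicate 2, where the log2 change was 2.15 and the edgeR adjusted p 0.0641.

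Dmkn encodes dermokine, a family of secreted isoforms made from alternative starts and ends of transcription. Its 5′-most window held 12, 3 and 16 cut sites in uninjured and 100, 36 and 24 in injured replicates 1 to 3, or 0.72, 0.085 and 0.455 CPM against 2.53, 1.75 and 0.691 CPM. The groups overlapped, since uninjured replicate 1 lay just above injured replicate 3. Means were 0.42 ± 0.319 and 1.66 ± 0.924 CPM (SD, n = 3), a log2 difference of 2.08 ± 0.67 (SE) with an edgeR adjusted p of 0.0968. Dmkn was also counted over only the clusters named horizontal basal cell-like (HBC-like) further on, in some of which another marker list stood higher. The log2 change there was 2.37 and passed the test (edgeR adjusted p = 0.0158), with 6.88% of all promoters called higher. It also passed without injured replicate 3 (2.47, edgeR adjusted p = 0.0226), with 4.31% of all promoters called higher.

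Krtdap encodes a small secreted protein of differentiating keratinocytes. It was the most open of the 3 starts in uninjured libraries on average, with 24, 74 and 26 cut sites there and 188, 95 and 90 in injured ones, or 1.44, 2.10 and 0.739 CPM against 4.76, 4.63 and 2.59 CPM. The groups did not overlap, although injured replicate 3 lay only slightly above uninjured replicate 2. The mean rose from 1.43 ± 0.679 to 3.99 ± 1.22 CPM (SD, n = 3), 2.80 times, with a log2 change of 1.48 ± 0.39 (SE) and an edgeR adjusted p of 0.0496. This call sits at the threshold: it was lost without each of uninjured replicates 1, 2 and 3 and injured replicates 1 and 2 (edgeR adjusted p from 0.0635 to 0.175).

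So 2 of the 3 starts were called higher and 0 lower, where 2.21% of the 17163 promoters tested were called higher and 1.71% lower. As the genes were chosen with results known, the count is a description. In 2 of 3 the groups did not overlap, against 13% of all promoters that lay higher without overlap. With the 34 barcodes of both replicate 3 libraries left out of both, the log2 changes were 2.36 (Sbsn, edgeR adjusted p = 0.00546), 2.09 (Dmkn, 0.0955) and 1.47 (Krtdap, 0.0407). With every barcode kept in 2 or more of the 6 libraries left out, they were 2.38 (Sbsn, 0.00533), 2.04 (Dmkn, 0.11) and 1.46 (Krtdap, 0.0469), and 8 of the 9 tiles described further on were called. With only barcodes that had at least 20% of their cut sites in open tiles, Krtdap lost its call (1.44, edgeR adjusted p = 0.0585) and Sbsn kept it (2.30, 0.00859).

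**Figure D1:**
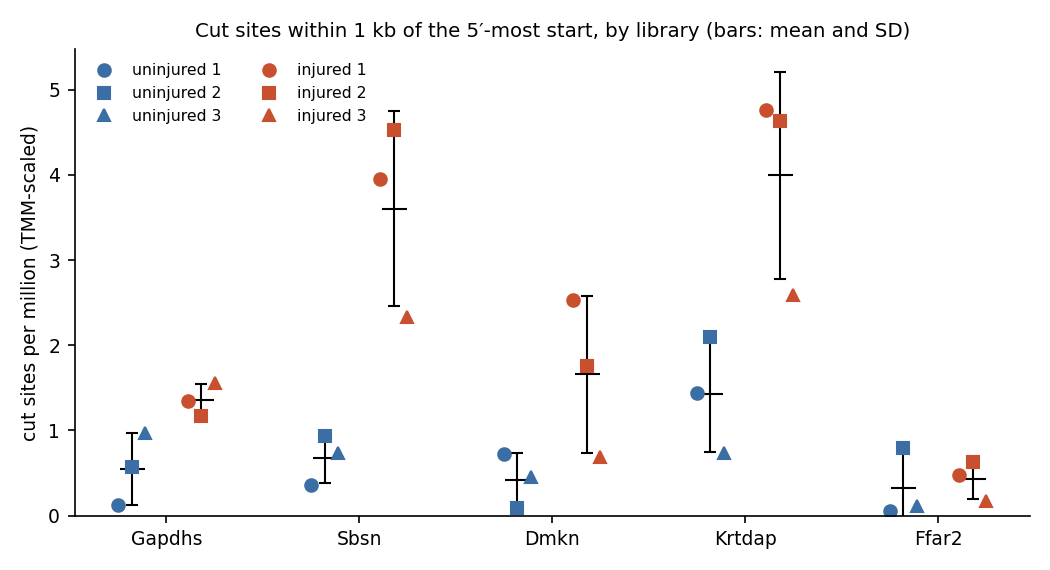
Cut sites (CPM, TMM-scaled) within 1000 bp of the 5′-most start of Sbsn, Dmkn, Krtdap and the neighbours Gapdhs and Ffar2, 1 point per library, with the group mean and SD as bars. At Sbsn and Krtdap all injured points lie above all uninjured ones, while Dmkn and Ffar2 overlap.

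The protein-coding neighbours had no called change at their 5′-most starts. The pseudogene Gm4883, upstream of Sbsn, had 0 to 4 cut sites in uninjured and 3 to 21 in injured libraries, too few for the test. Tmem147, a broadly expressed membrane protein gene whose start is the most open of the window, stood at 20.1, 17.5 and 17.3 CPM in uninjured and 20.8, 22.2 and 20.2 CPM in injured libraries (log2 difference 0.21 ± 0.10, edgeR adjusted p = 0.242). Gapdhs, the sperm form of a glycolytic enzyme, starts 7.79 kb from Sbsn and had 0.12, 0.567 and 0.966 CPM against 1.34, 1.17 and 1.55 CPM. Its groups did not overlap, and the log2 difference of 1.21 ± 0.54 did not pass the test (edgeR adjusted p = 0.213). Ffar2, a receptor for short-chain fatty acids on the far side of Krtdap, differed by 0.26 ± 0.82 (edgeR adjusted p = 0.885), and the 5′-most window of Atp4a, the gastric proton pump gene, had too few cut sites to be tested.

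The windows at every annotated start separate the alternative starts of each gene. Of the 15 windows of the 3 genes 14 could be tested and 6 were called higher, and 0 lower, with 2.73% of all 94750 start windows called higher and 2.56% lower. The 6 are not independent: 4 lie on Sbsn starts less than 0.1 kb apart (log2 changes 2.30 to 2.38, edgeR adjusted p 0.00579 to 0.00629) and 2 on adjacent Krtdap starts (1.44, 0.0488). The remaining Sbsn start, 1.16 kb downstream, was too sparse to test, with 0, 3 and 3 cut sites in uninjured and 24, 12 and 10 in injured libraries.

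The Dmkn starts differed in which injured library was highest. The 3 starts at the 5′ end had log2 differences of 1.94 to 2.04 (edgeR adjusted p 0.0856 to 0.0894). At the next start, 30765057, injured replicates 1 to 3 had 1.18, 2.16 and 2.97 CPM and uninjured ones 1.1, 0.401 and 1.38 CPM (log2 difference 1.14 ± 0.48, edgeR adjusted p = 0.183). The internal start at 30776401 stood at 0.793, 0.258 and 1.55 CPM before and 0.801, 0.527 and 2.08 CPM after injury, a log2 difference of 0.40 ± 0.63 (edgeR adjusted p = 0.761). Here replicate 3 was the highest library of both groups, the reverse of its place among the injured libraries at the 5′ end. The windows at the 3 downstream Krtdap starts differed by 0.33 to 1.05 on the log2 scale and none was called (edgeR adjusted p 0.374 to 0.821). Whether any 2 starts of a gene differed in their change was not tested.

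Tiles of 500 bp placed the change more finely. A tile counted as open where it reached 5 times the level of the genome's median tile, taken as mean CPM of all 6 libraries without the TMM factor. That level was 0.23 CPM, and a tile could reach it through the injured libraries alone. Of the tiles called below, those at 30749501, 30751501 and 30769501 were under it on average in the uninjured libraries. Of the 281 tiles, 54 were open and 42 had enough cut sites to be tested. Of these 9 were called higher and 0 lower, or 21.4% higher, where 5.48% of the 406452 tiles tested across the genome were called higher and 1.26% lower. The injured libraries lay wholly above the uninjured in 17 of the 42, beside 15.6% of tiles genome-wide, and wholly below in 0, beside 9.72%. The median log2 change was 0.85 over the 42 and 0.06 over all tiles tested. The called tiles fell into 6 separate regions, 5 tiles from the Sbsn start to the Krtdap end and 4 in the flanks. None of them covered an annotated start of Dmkn or Krtdap. The tested tiles at 30787001, 30787501 and 30788001, around the 5′-most Krtdap start, were not called, although the window there was.

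**Figure D2:**
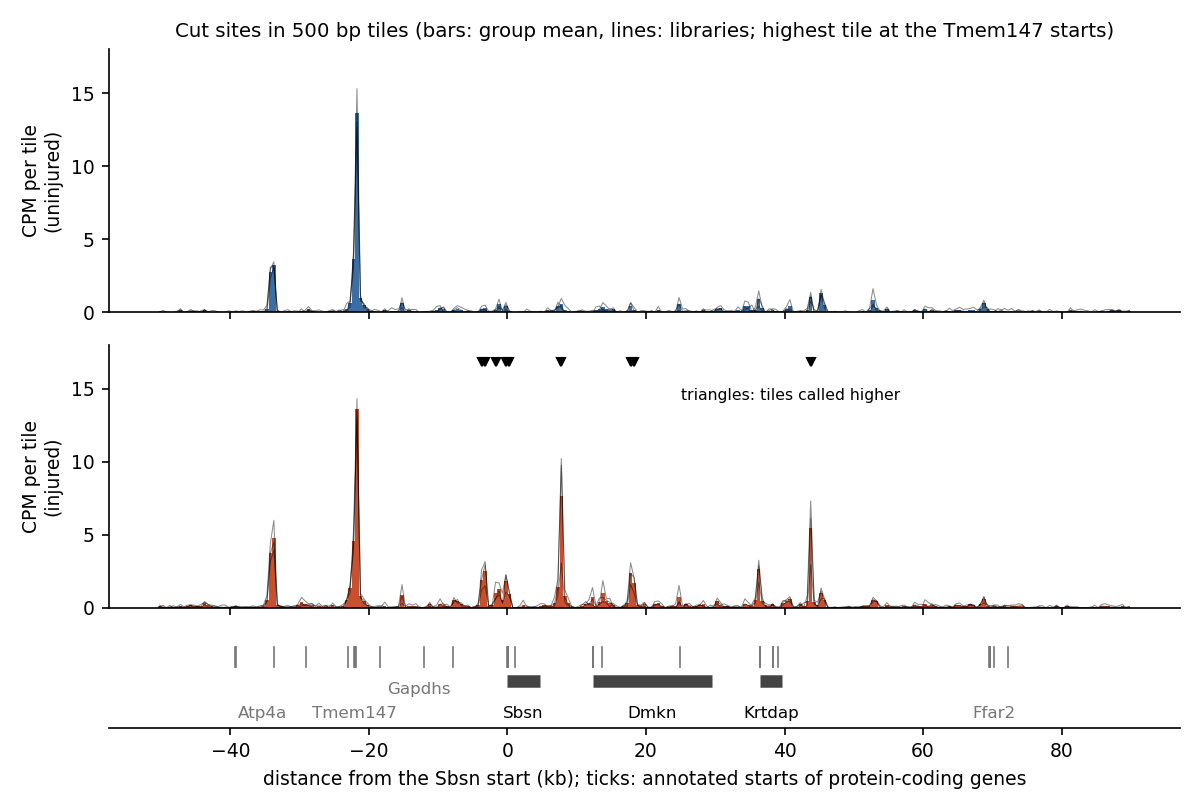
Cut sites (CPM) in each 500 bp tile against the distance from the Sbsn start in kb, with bars for the group mean and thin lines for single libraries, uninjured above and injured below. Triangles mark the 9 called tiles; the tile at the Tmem147 start is the highest in both groups, and the tile between Sbsn and Dmkn is the next highest after injury.

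The largest change was not at a start. The tile at 30759001 to 30759500 lies between Sbsn and Dmkn, 7.78 kb from the Sbsn start, and overlaps no annotated gene. It held 5, 16 and 33 cut sites in uninjured and 426, 205 and 110 in injured replicates 1 to 3, or 0.315, 0.471 and 0.96 CPM against 10.2, 9.74 and 3.07 CPM. All injured libraries were far above all uninjured ones, with injured replicate 3 again the lowest. The log2 change was 3.63 ± 0.50 (edgeR adjusted p = 0.00274), and the tile stayed called when any 1 library was left out (highest edgeR adjusted p 0.0327). Its sequence is the intergenic region printed above.

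The tile just inside Sbsn, 30751501 to 30752000, held 1, 4 and 3 cut sites before and 45, 22 and 28 after injury (log2 change 3.31 ± 0.55, edgeR adjusted p = 0.00563), and it too stayed called without any 1 library (highest edgeR adjusted p 0.0476). The tile upstream of it, 30751001 to 30751500, held 3, 23 and 18 and then 93, 48 and 39 cut sites, a log2 change of 1.92 (edgeR adjusted p = 0.038). That call was lost in 10 of 16 alternatives, among them leaving out each library but injured replicate 3 (edgeR adjusted p up to 0.208). Together they span the cluster of Sbsn starts. At uninjured counts this low the size of a fitted change depends on the prior count of the fit.

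Upstream of Sbsn, the adjoining tiles from 30747501 to 30748500 both rose. These lie in introns of the noncoding transcripts Tmem147os and Gm26935 and touch an exon of the latter. The second held 3, 5 and 17 cut sites before and 132, 62 and 54 after injury (log2 change 3.12 ± 0.52, edgeR adjusted p = 0.00576). The first held 2, 8 and 15 and then 109, 41 and 44 (2.76 ± 0.51, edgeR adjusted p = 0.00879). The tile at 30749501 to 30750000 held 1, 6 and 8 and then 26, 37 and 21 cut sites, a log2 change of 2.48 (edgeR adjusted p = 0.0416), and its call was lost in 10 of 15 alternatives, again without each library but injured replicate 3 (up to 0.256).

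Inside Dmkn, 18 kb from the Sbsn start and away from any annotated start, the tile at 30769501 to 30770000 held 1, 4 and 12 cut sites in uninjured and 87, 43 and 36 in injured libraries (log2 change 3.12 ± 0.59, edgeR adjusted p = 0.00978). Its neighbour at 30769001 to 30769500 held 1, 22 and 23 and then 98, 65 and 58, a change of 2.22 (edgeR adjusted p = 0.0324). Downstream of Krtdap, the tile at 30795001 to 30795500 was the most open of the 9 before injury, with 12, 38 and 47 cut sites, and reached 305, 129 and 106. That is 0.756, 1.12 and 1.37 CPM against 7.31, 6.13 and 2.96 CPM, a log2 change of 2.30 ± 0.37 (edgeR adjusted p = 0.00505). In all 9 tiles the injured libraries lay above the uninjured ones. The tiles at 30759001 and 30751501 kept their calls in every alternative run, though the latter counted as open only with the injured libraries. Each of the other 7 lost its call when injured replicate 2 was left out (edgeR adjusted p 0.0543 to 0.256). Those at 30747501, 30769001 and 30769501 also lost it without injured replicate 1 or without uninjured replicate 2, and that at 30769001 without uninjured replicate 1 (edgeR adjusted p 0.0507 to 0.106).

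**Figure D3:**
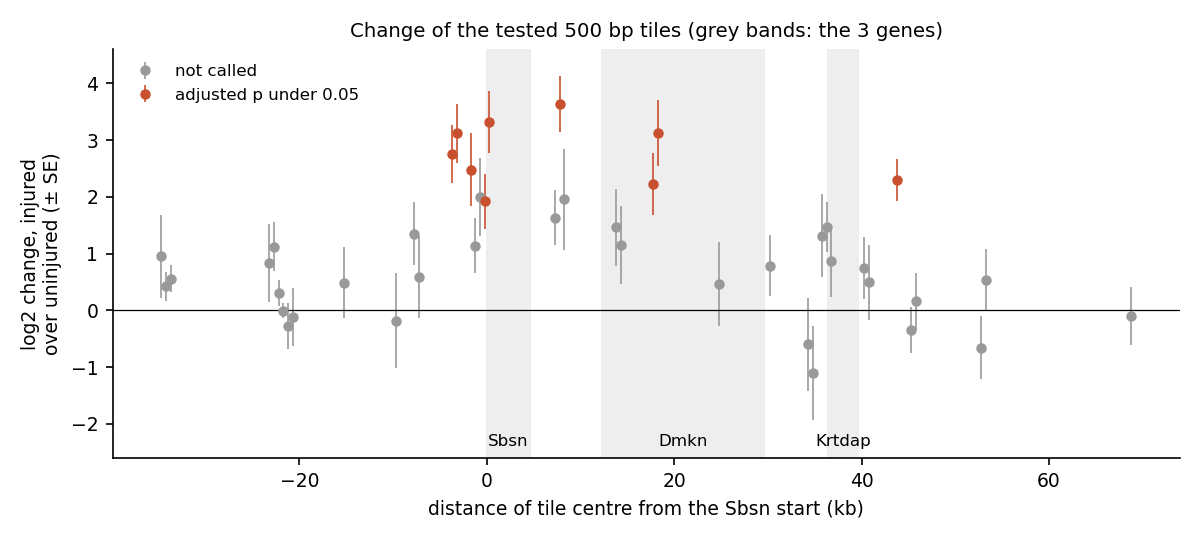
Log2 change with its SE of each of the 42 tested tiles against the distance of its centre from the Sbsn start in kb, with the 3 genes as grey bands. The 9 called tiles (red) lie between 3.72 kb upstream and 43.8 kb downstream of the Sbsn start, and tiles around them, at the Tmem147 start and beyond Krtdap include values near and below 0.

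The count of called tiles depended on single libraries. It was 6 without uninjured replicate 1, 4 without uninjured replicate 2, 4 without injured replicate 1 and 2 without injured replicate 2, while it was 9 and 12 without uninjured and injured replicate 3. Of all tiles, 1.97%, 1.65%, 1.51%, 1.01%, 4.78% and 7.53% were called higher in the same order. No tile of the window was called lower in any of these fits. Leaving out the 34 shared barcodes gave 8 called tiles, and the filter on barcodes with 20% of cut sites in open tiles gave 7. Genome-wide, 5.17% and 4.79% of tiles were called higher in those fits.

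AP-1 letters were more frequent in the genome's rising tiles than in others, with a match in 59.7% of the 22267 tiles called higher and in 18.1% of those tested and not called. In the window studied, 4 of the 9 called tiles held a match and 5 of the 33 others. The TEAD motif CATTCC was in 4 of the 9 and 7 of the 33, and in 29.5% of tiles called higher and 25.7% of the others genome-wide. The KLF motif GGGNGTGG was in 5 of 9 and 13 of 33, with 18.8% and 18% genome-wide. The CEBP motif TTGCNNAA was in 1 of 9 and 8 of 33, the GRHL motif AACNGGTT in 0 and 1, and the p53 and p63 family motif in 0 and 0. Both strands were searched, and motifs may overlap.

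The 3 members were next compared with each other in the same libraries, as log2 ratios of cut sites at the 5′-most starts (pseudocount 0.5). Sbsn over Krtdap was −1.91, −1.15 and 0 in uninjured and −0.27, −0.03 and −0.15 in injured replicates 1 to 3. The mean difference of 0.87 had an exact two-sided permutation p of 0.4, adjusted 0.9 over 3 ratios. Sbsn over Dmkn differed by 0.24 and Krtdap over Dmkn by −0.63 (exact permutation p = 0.9 for each, adjusted 0.9). The smallest p that 3 libraries against 3 allow is 0.1, so none could pass 0.05, and both ratios to Dmkn changed sign when 1 library was left out.

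In single cells the starts were sparse. With each barcode thinned to 2000 fragments, a cut site within 1000 bp of any Sbsn start was seen in 0.164 ± 0.0541% of uninjured and 0.552 ± 0.246% of injured cells (SD, n = 3, exact permutation p = 0.1, adjusted 0.2 over the 4 regions compared). For Dmkn the shares were 0.253 ± 0.227% and 0.636 ± 0.418% (exact permutation p = 0.3, n = 3) and for Krtdap 0.493 ± 0.0626% and 0.552 ± 0.461% (p = 0.9). Without thinning the shares were 1.60% and 5.97% for Sbsn, 3.56% and 7.80% for Dmkn and 3.12% and 6.68% for Krtdap, at median depths of 8710 to 21702 fragments per barcode. A cut site in any of the 9 called tiles was seen in 1.00 ± 0.116% of thinned uninjured and 4.72 ± 2.35% of thinned injured cells (SD, n = 3). These tiles were picked by the same contrast, so that last difference is a description. They are 1 of the 4 regions in the adjustment, so the adjusted value for Sbsn rests in part on them.

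To see which cells carried the open locus, 4403 cells were clustered on open regions of every chromosome except 7, so the locus had no part in the clusters. Of the 11 clusters, 6 stood above the rest for horizontal basal cell markers with no marker of another list among their 10 leading genes (clusters 1, 2, 6, 9, 10 and 11), a naming rule set after the data were seen. The margins were small: the median log2 level of these markers against the rest ran from 0.115 (cluster 10) and 0.135 (cluster 11) to 0.533 (cluster 1). Cluster 3, left unnamed, stood at 0.106. In clusters 6 and 10 the respiratory list and in cluster 11 the Bowman's gland list stood higher still against the rest. The 6 clusters held 341 of 454, 601 of 889 and 341 of 629 kept barcodes in uninjured replicates 1 to 3. In injured replicates 1 to 3 they held 1138 of 1338, 272 of 420 and 291 of 746. Clusters 1, 2 and 10 were mostly uninjured cells (520 of 521, 529 of 552 and 156 of 165, with 153 of cluster 10 from uninjured replicate 3). Clusters 9 and 11, led by genes that include the stress keratins Krt16 and Krt6a, were nearly all injured (528 of 532 and 767 of 767), and cluster 6 held 373 injured cells of 447.

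The locus was most open in clusters 9 and 11. CPM by cluster are scaled to all cut sites of the cells counted, without the TMM factor. Summed over the 9 called tiles, cluster 9 had 39.8, 49.0 and 34.5 CPM in injured replicates 1 to 3 and cluster 11 had 39.0, 40.3 and 37.2 CPM. The uninjured cells of cluster 1 had 2.13, 2.70 and 1.39 CPM. Injured replicate 3 was the lowest injured library in both clusters, as it was over all cells at all 9 called tiles. It supplied 41 and 92 cells to clusters 9 and 11 of its 719, against 417 and 510 of 1321 in injured replicate 1 and 70 and 165 of 404 in injured replicate 2, and the part of these numbers in its lower level was not tested. Clusters 1, 2 and 10 held 1, 23 and 9 injured cells with 0, 4 and 3 cut sites over the 9 tiles, too few for a comparison of those clusters after injury. The sustentacular-like cluster 5 had 16.2 CPM in its 36 injured cells (55 cut sites) and 5.32 CPM in its 141 uninjured cells (35 cut sites). At the finer resolution of 1, the cluster highest for the sustentacular list held 126 uninjured cells and 1 injured cell. Cells of the groups within cluster 5 are thus not shown to be alike. As the tiles were picked by the group contrast and clusters 1, 2, 9, 10 and 11 follow the groups, the levels are descriptions.

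**Figure D4:**
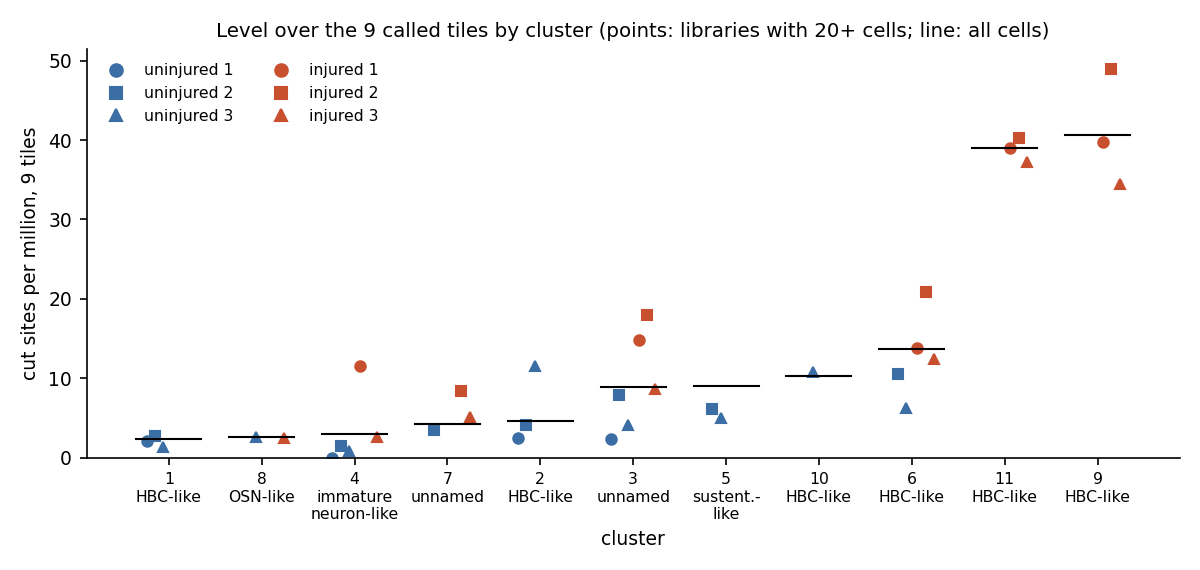
Cut sites (CPM) summed over the 9 called tiles for each cluster, ordered by level, with 1 point per library that has at least 20 cells in the cluster and a line for all its cells. Clusters 9 and 11 lie at 34.5 to 49.0 CPM in the 3 injured libraries, and no point of another cluster is above 20.9 CPM.

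The 3 starts were not equally closed in the mostly uninjured clusters, and their order differed between these. In cluster 1, Krtdap stood at 3.14 CPM (95% Poisson interval 2.51 to 3.88, covering counting error only), Sbsn at 0.74 CPM (0.451 to 1.14) and Dmkn at 0.33 CPM from 9 cut sites. Such intervals take cut sites as independent, but both ends of a fragment were counted, so they are too narrow. By library, Krtdap was at 2.92, 3.42 and 2.54 CPM there. Cluster 2 had Krtdap at 2.17 CPM (1.24 to 3.52) and Sbsn at 0.54 (0.148 to 1.39). Cluster 10, nearly all from uninjured replicate 3, had the reverse order, with Sbsn at 1.83 CPM (1.12 to 2.83) and Krtdap at 0.73 (0.317 to 1.45). These 2 levels rest on 20 and 8 cut sites, and their intervals overlap. In clusters 9 and 11 Krtdap reached 5.74 and 5.71 CPM, Sbsn 4.15 and 5.24 CPM and Dmkn 1.94 and 2.70 CPM. The windows have equal length, so these levels can be set side by side. The mature neuron-like cluster 8 had 0 Krtdap cut sites of 7323126, with an upper Poisson limit of 0.504 CPM.

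Cluster 3, 656 cells led by Depp1, Reg3g and F2, drew on both groups. It supplied 57, 101 and 148 cells in uninjured libraries (of 449, 882 and 628) and 108, 64 and 178 in injured ones (of 1321, 404 and 719), and was left without a name because Reg3g is a respiratory marker here. Over the 9 tiles it had 2.38, 7.82 and 4.09 CPM in uninjured and 14.8, 18 and 8.63 CPM in injured replicates 1 to 3. The groups did not overlap. The tiles were picked by the same contrast over all cells, those of cluster 3 included, so this is a description. At the finer resolution of 1, most of these cells fell into a cluster of 273 uninjured and 73 injured cells, with 3.72 and 10.3 CPM over the 9 tiles, and a cluster of 18 uninjured and 231 injured cells, with 11.9 CPM (19 cut sites) and 11.5 CPM. Cells of the groups within cluster 3 are thus not shown to be alike. Most of the difference within cluster 3 was the region downstream of Krtdap, at 0, 3.76 and 1.25 CPM before and 9.83, 9.37 and 3.53 CPM after injury. The region between Sbsn and Dmkn stood between 0.56 and 1.48 CPM in all 6 libraries of this cluster. The HBC-like cluster 6, which also drew on both groups, had 9.92 CPM over the 9 tiles in its 74 uninjured cells, from 8 cut sites, and 14.0 CPM in its 373 injured cells. There the Dmkn start stood at 7.44 CPM (6 cut sites) in uninjured and 1.29 CPM (10 cut sites) in injured cells.

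Those regions thus had different patterns over the clusters. The intergenic region stood at 14.6 CPM (95% Poisson interval 12.5 to 17.1) in cluster 9 and 13.4 (12.3 to 14.6) in cluster 11, and at 0.70 (0.446 to 1.04) in cluster 3 and 0.93 (0.403 to 1.84) in cluster 6. The region downstream of Krtdap stood at 7.5 and 6.17 CPM in clusters 9 and 11 and at 4.29 and 7.71 CPM in clusters 3 and 6. In cluster 1 the values were 0.37 and 0.78 CPM. These are levels over pooled cells with counting error only.

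At the internal Dmkn start the clusters were in another order. Over cells of both groups it stood at 2.87 CPM in the mature neuron-like cluster 8 (21 cut sites), 2.57 in cluster 10 (28) and 2.00 in the immature neuron-like cluster 4 (37), and at 0.35 and 0.80 CPM in clusters 9 and 11. The counting intervals of clusters 8, 10 and 4 overlap one another. In cluster 8 it was at 5.65 CPM in the 54 uninjured cells (16 cut sites) and 1.11 CPM in the 122 injured ones (5 cut sites). At resolution 1 those cells made up a cluster of 73 cells with 10 of the cut sites and one of 103 cells with 11, the latter with the immune genes Il1b, Cd33, Osm and Trem1 among its leading genes. The neuron-like clusters 4 and 8 held 107 and 91 cells of injured replicate 3 and 48 and 32 of uninjured replicate 3, and 8 to 44 cells in each other library. Replicate 3 was also the highest of both groups at this start over all cells, and the part of cell mixture in that was not tested.

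Other genes of stratified epithelia were read from the same promoter fit as the backdrop for the locus. The lists hold 51 genes, 46 were tested and 3 were called higher and 0 lower, where 2.21% of all promoters were called higher. The median log2 change was 0.36 against 0.003 over all promoters, and 36 of the 46 lay above 0 against 50.4% of all. The 3 were Ivl (involucrin, a cornified envelope protein), which rose from 1.85 to 4.54 CPM (log2 change 1.27 ± 0.31, edgeR adjusted p = 0.0405), Sprr1a (a cross-linked envelope precursor), from 12.8 to 22.5 CPM (0.80 ± 0.17, 0.0318), and Tgm1 (the transglutaminase that cross-links them), from 12.9 to 20.5 CPM (0.65 ± 0.14, 0.0264). Sprr1a belongs to a family of related genes, and reads that could not be told apart may be missing. All 3 calls were lost without each of replicates 1 and 2 of either group (edgeR adjusted p 0.0664 to 0.161), that of Ivl also without uninjured replicate 3 (0.0709), and all 3 with factors from 10 kb bins.

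By list, 0 of 7 tested suprabasal keratins, 2 of 13 envelope proteins, 1 of 12 cornification enzymes, 0 of 6 junction and surface proteins and 0 of 8 regulators of stratification were called. Among keratins Krt80 was the most open, with 8.17, 9.13 and 18.3 CPM before and 29.8, 26.4 and 23.4 CPM after injury (log2 difference 1.13, edgeR adjusted p = 0.0922), and Krt4 differed by −0.80 (0.374). Lypd3, a surface protein of suprabasal cells, had 4.38, 7.37 and 2.90 against 18.4, 14.5 and 8.72 CPM (1.50, 0.0729). The open promoters of the plakins Evpl and Ppl differed by 0.17 and −0.02, of the lipoxygenase gene Aloxe3 by 0.19, of the protease inhibitor Cst6 by 0.70, of Sfn by −0.11 and of the transcription factors Klf4 and Cebpa by −0.13 and 0.14 (edgeR adjusted p 0.224 to 0.931). The windows of Sbsn and Krtdap, and that of Dmkn, thus differed by more on the log2 scale than those of the called list genes Ivl, Sprr1a and Tgm1, a difference that was not tested. Those list genes were more open before injury on average than the members. Of the uncalled list genes, Tgm3 (log2 difference 1.79, edgeR adjusted p = 0.133) and Lypd3 lay above Krtdap.

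**Figure D5:**
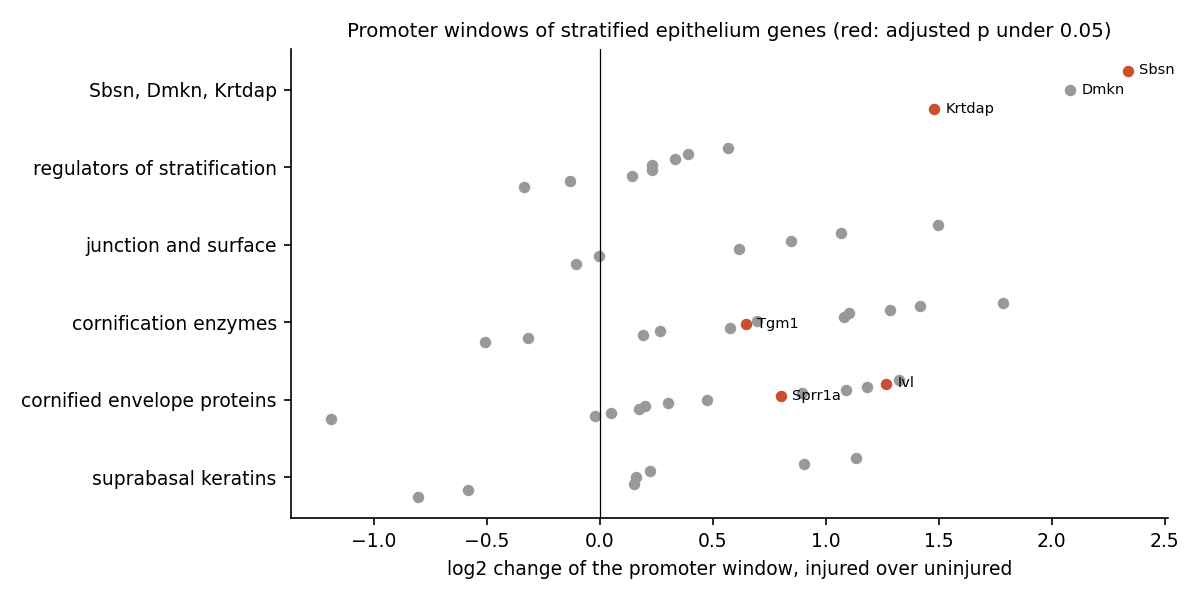
Log2 change of the promoter window after injury for the tested genes of each stratified epithelium list and for the 3 members, 1 point per gene, red where the edgeR adjusted p was under 0.05. Sbsn (2.34) and Dmkn (2.08) lie to the right of every listed gene, and Krtdap (1.48) lies near Lypd3 (1.50) and to the left of Tgm3 (1.79).

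Over the 6 libraries the promoters most like Sbsn, by the root mean square distance of centred log2 CPM among 17162 others, were Gm17571 (0.119), Kcnn4 (0.191), Upk3bl (0.216), Il23a (0.229) and Tars2 (0.248). Those most like Krtdap were Lypd3 (0.13), Adhfe1 (0.177), Sec16b (0.2), Nfic (0.206) and Pcdhgc5 (0.215). The neighbours on the chromosome were not each other's nearest: Krtdap ranked 321 in likeness to Sbsn (0.677) and Dmkn 3001 (1.11). Dmkn has the fewest cut sites of the 3, and low counts enlarge this distance.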

How the data were processed

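Both ends of every fragment were counted as cut sites from the deposited fragment lists, which hold counts the authors made. The submitters' processing notes name Cell Ranger 2.0.0 and mm10. The headers of the deposited peak matrices give software version 1.2.0, and which version made the fragment lists is not given in the sources used here. The files' count column gives read pairs per fragment, and each fragment was used once here. The authors' peak matrices were not used. No fragment ran past a GRCm38 chromosome end.

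Cut sites were summed per library over barcodes with 2000 or more fragments, since cells are not replicates. Groups (3 libraries each) were compared with edgeR 4.0.16 in R 4.3.3 (quasi-likelihood, robust, TMM, filterByExpr, no covariate), adjusted by Benjamini-Hochberg over all promoters, start windows or open tiles, threshold 0.05. Changes are relative to the TMM scale. Single values per library were compared by exact two-sided permutation. Cells with 20% of cut sites in open tiles were clustered with TF-IDF, SVD and Leiden (scanpy 1.11.5, resolution 0.5), and called doublets were kept. Intervals cover counting error only and take cut sites as independent, which makes them too narrow.

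Named were all members and neighbours within 50 kb, called list genes with the 2 most open uncalled ones per list, called tiles, and the 5 promoters most like Sbsn and Krtdap. Tgm3 was named as well, for a larger log2 difference than that of Krtdap. Members and lists were chosen with earlier results of these data known. The fits were tested on simulated data. Alternatives covered libraries left out, scaling, barcode filters, window width and DESeq2 1.42.0, the last not on tiles. Leaving out barcodes shared by libraries, and marker sums without the most open gene, were chosen after seeing the data.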

Additional observations from a re-analysis of the deposited data

How the results depend on the processing

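The direction of the change at Sbsn, Dmkn and Krtdap was upward in every fit run. Krtdap was not called with barcodes of 5000 or more fragments (log2 change 1.44, edgeR adjusted p = 0.0555), with 20% of cut sites in open tiles (1.44, 0.0585) or with 500 bp either side (1.48, 0.0547), which left 1 member called in place of 2. Dmkn was called with scaling by total cut sites (1.76, edgeR adjusted p = 0.0356), with factors from 10 kb bins (1.46, 0.0189), over HBC-like clusters (2.37, 0.0158) and by DESeq2 (2.05, adjusted p = 0.0417). The cause was not tested. Total cut sites and 10 kb bins moved the median promoter to −0.28 and −0.54, with 417 higher and 6600 lower or 272 higher and 9830 lower promoters against 379 and 294. On those scales Sbsn stood at 2.05 and 1.78 and Krtdap at 1.19 and 0.92. There 7 and 6 tiles of the window were called, and 4.41% and 3.26% of all tiles were called higher. The listed genes called numbered 9 over HBC-like clusters, 5 without doublets and 7 by DESeq2, against 3. The shares of all promoters called higher were 6.88%, 2.42% and 3.72%, against 2.21%. The highest cluster level was 45.0 CPM at resolution 1, against 40.7.

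Leaving out 1 library at a time gave 0 to 3 members called, log2 changes of 2.09 to 2.61 for Sbsn, 1.53 to 2.60 for Dmkn and 1.14 to 1.92 for Krtdap, 0 to 9 start windows, 2 to 12 tiles and 0 to 9 listed genes. Called higher in these fits were 0.392% to 4.31% of all promoters, 0.701% to 4.27% of all start windows and 1.01% to 7.53% of all tiles. The log2 ratio difference ran from 0.43 to 1.38 (Sbsn over Krtdap), from −0.73 (without uninjured replicate 1, and −0.0016 without injured replicate 3) to 1.37 (Sbsn over Dmkn) and from −1.30 to 0.57 (Krtdap over Dmkn, the last without uninjured replicate 2). The difference in share of cells ran from 0.306 to 0.53 percentage points for Sbsn, 0.165 to 0.582 for Dmkn, −0.188 (without injured replicate 1) to 0.268 for Krtdap and 2.98 to 5.08 for the 9 tiles.

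Same-numbered libraries deviated together with correlations of 0.0431, 0.169 and 0.2, and different-numbered ones with correlations from −0.221 to 0.0873. The main fit was unpaired because the labels give only a replicate number and an age. With the replicate number as a block, 778 promoters were higher and 1019 lower, Sbsn was at 2.33 (edgeR adjusted p = 0.00246), Dmkn at 2.01 (0.056) and Krtdap at 1.53 (0.00633), and 9 start windows and 10 tiles of the locus were called. With the block, 4.33% of all start windows and 6.38% of all tiles were called higher. Depth is a limit at the starts: Dmkn had 3 to 16 cut sites per uninjured library.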

Other observations

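Another start within 50 kb of the locus was open in both groups. The window at the Atp4a start annotated at 30717832, inside that gene and 33.6 kb from Sbsn, stood at 5.24, 6.50 and 6.81 CPM in uninjured and 9.19, 11.3 and 7.64 CPM in injured replicates 1 to 3. The groups did not overlap, and the log2 difference of 0.58 ± 0.20 did not pass the test (edgeR adjusted p = 0.104), while 13.1% of all start windows lay higher without overlap. The 5′-most start of the gene had 0.0567 to 0.304 CPM. Upstream of Krtdap, the tile at 30786001 to 30786500 was among the 9 tested tiles below 0, at 0.315, 0.206 and 0.698 CPM before and 0.168, 0 and 0.363 CPM after injury (log2 difference −1.10 ± 0.83, edgeR adjusted p = 0.564), and its groups overlapped.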
